A study of Mus musculus with 4 samples.

Results

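The sites described here are the CpGs of chromosomes 1 to 19 that were read at least 50 times in each of 2 whole-genome bisulfite sequencing (WGBS) libraries of mouse embryonic stem cells. The rule kept 4561 of 14161393 listed autosomal CpGs (0.0322%). CpGs less than 1 kb (1000 bp) from the next were joined, which gave 435 clusters, and clusters less than 200 kb apart lay in 89 neighbourhoods. These CpGs were selected on read coverage alone, so coverage is given only as a description. Methylation, position, CpG spacing and RNA played no part in the choice.

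E14Tg2a embryonic stem cells were compared as unmodified cells (WT) and as cells in which Tet1, Tet2 and Tet3 were mutated with CRISPR (TetTKO). The Tet enzymes oxidise 5-methylcytosine to 5-hydroxymethylcytosine, and WGBS reads both as methylated. The mutant was made by transient transfection of guide RNAs in 2i medium (MEK and GSK3 inhibitors) and picked as clones. Both lines were then grown in 15% serum and LIF at 1000 units/ml for at least 17 days. There was 1 WGBS library and 1 RNA-seq library of each line. No value below therefore has a replicate check, no test between genotypes was possible, and effects of clone and of genotype cannot be told apart. Intervals in the text are exact (Clopper-Pearson) 95% intervals of read shares and cover counting error only.

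Satellite DNA consists of short units repeated head to tail, and mouse major satellite, the repeat of pericentromeric heterochromatin, is normally heavily methylated. Ribosomal DNA, the template of the 45S pre-rRNA, is also a tandem array, and large families of zinc finger and other genes lie in young segmental duplications. A reference assembly holds few of the copies of such arrays, so reads from many copies can align to 1 place and a methylation value is then an average over copies.

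The label of this set, likely repeats, was compared with CpG spacing, since no mm9 sequence was used here. Among 17846 RefSeq promoters with at least 6 CG, 1 had all its CG spaced exactly as consecutive listed CpGs of a cluster, and it is shown because it is the single stretch of sequence that could be placed on these sites. It is the promoter of Gm33862 (GRCm38.p6, chr11:3136826-3137125, plus strand), 300 bases that match the spacing of 6 member CpGs at mm9 positions 3036869 to 3037106 of chromosome 11. These CpGs lie inside the deposited interval of Sfi1. Capitals mark the CG dinucleotides.
Gm33862 promoter: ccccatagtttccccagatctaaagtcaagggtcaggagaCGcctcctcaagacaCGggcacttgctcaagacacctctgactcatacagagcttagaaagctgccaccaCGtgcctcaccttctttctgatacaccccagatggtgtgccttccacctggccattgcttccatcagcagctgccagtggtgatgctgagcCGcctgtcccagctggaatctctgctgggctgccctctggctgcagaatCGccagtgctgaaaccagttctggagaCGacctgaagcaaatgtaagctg
The 6 CpGs had 92 to 195 reads in WT and 109 to 219 in TetTKO. Their pooled methylation was 74.0% in WT and 67.2% in TetTKO, and each of the 6 was lower in TetTKO.

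Autosomal read calls numbered 131671740 in WT and 148888474 in TetTKO. The median autosomal CpG was read 9 times in WT and 10 times in TetTKO. Chromosome 6 stood apart, at 1.28 of the WT autosomal mean coverage and 0.961 of the TetTKO mean. In RNA, the 10 listed embryonic stem cell markers ranged from 18.1 to 3211 FPKM (fragments scaled by transcript length and library size) in WT and from 16.3 to 3344 in TetTKO. The 10 fibroblast markers summed to 129.8 and 147.5 FPKM, and Lum was at 0 in both. Vim, also expressed by stem cells, made up 117.5 and 108.7 of these sums. Of the 4 fibroblast markers that reached 1 FPKM, 2 were at least 2-fold higher in TetTKO. They were Acta2 (1.86 and 9.84 FPKM) and Tagln (8.59 and 26.4), while Vim and Thy1 (1.29 and 0.96) were lower. Elf5, of the trophoblast list, was at 0 in WT. The 6 primitive endoderm markers summed to 9.01 FPKM in WT and 34.3 in TetTKO, and the 6 trophoblast markers to 34.3 and 61.9. Col4a1 made up 6.44 and 25.35 of the first sums, and the other primitive endoderm markers were at most 3.16 FPKM. Krt8 made up 18.5 and 33.1 of the second sums and Krt18 14.9 and 25.1. The other trophoblast markers were at most 1.41 FPKM. Whether such other cells were present, and their part in the methylation values, was not tested.

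As a mean over CpGs, the high-coverage CpGs were less methylated than the genome in both libraries. By that mean they were lower in TetTKO than in WT by about the same amount as the genome. Both statements depend on the weighting and on the 594 nearly unmethylated CpGs of ribosomal DNA (Rn45s, described below). Their mean methylation was 54.4% in WT and 50.1% in TetTKO, or -4.38 points in TetTKO relative to WT (in percentage points throughout). Over all listed autosomal CpGs the means were 69.4% and 65.01%, or -4.42 points. The 14303 CpGs that lay 1 to 10 kb from a cluster and were not members had 66.9% and 61.1%, or -5.80 points. Pooled over reads, which weights the deepest CpGs most, the members had 69.4% (69.3 to 69.4) in WT and 61.5% (61.5 to 61.6) in TetTKO. That is a difference of -7.85 points. The member medians were 72.2% in WT and 64.3% in TetTKO. Without the Rn45s cluster the mean difference of members was -5.09 points.

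Across clusters the shift was wide. Of 435 clusters, 357 were lower in TetTKO, 76 were higher and 2 were equal, with a mean difference of -6.51 points (SD over clusters 7.96) and a median of -6.61. Clusters share neighbourhoods and are not replicates. At a size of at least 20 points, 3 clusters (0.69%) were higher and 17 (3.91%) lower. Windows of 1 kb were formed with the members left out and kept with at least 5 CpGs and 50 pooled reads in each library. Of these 930297 windows, 71.4% were lower in TetTKO by any amount, beside 82.1% of clusters, and their median difference was -5.49 points. At least 20 points higher were 2.64% of the windows, and 4.92% were at least 20 points lower. All 20 clusters past that size had at most 2 CpGs. The 221 clusters of at least 3 CpGs ranged from -18.3 to 12.1 points, with 187 lower and 34 higher.

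The WT level sorted the clusters. The 98 clusters of at least 80% in WT had a median difference of -9.68 points, beside -9.28 in windows of that class. The 265 clusters from 50 to 80% had -6.67, beside -2.44 in windows. The 55 clusters from 10 to 50% had -0.27, whereas windows of that class were higher in TetTKO by a median of 12.1 points. The 22 clusters of that class with at least 3 CpGs had a median of -2.95, and 16 of the 22 were lower. The 17 clusters under 10% had a median difference of 0.197, beside 2.53 in windows. Windows and clusters differ in depth and the classes were set on the WT values themselves. The part of either in these contrasts was not tested.

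**Figure D1:**
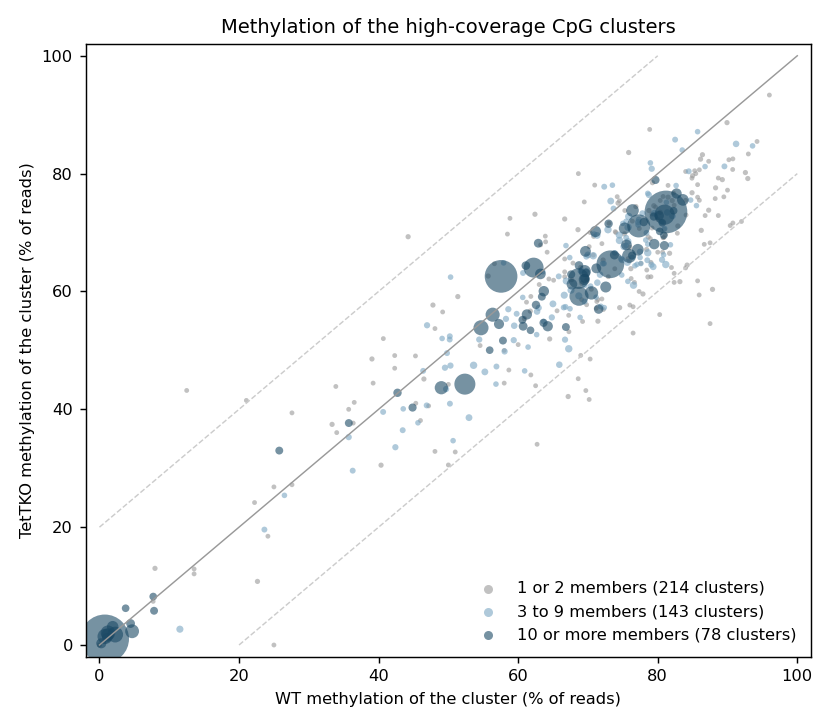
Methylation of each of the 435 clusters, as percent of reads, in WT (horizontal) and TetTKO (vertical); area grows with the number of CpGs, the solid line marks equality and the dashed lines 20 points either way. Most clusters lie under the line (357 of 435), and the clusters of at least 3 CpGs stay within the dashed lines.

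Methylation was not a steady function of coverage. CpGs with 50 to 99 reads in the shallower library had means of 62.4% in WT and 56.8% in TetTKO. From 200 to under 1000 reads the means were 37.4% and 34.8%, and 51.2% of the 1264 CpGs were under 10% in WT. The median depth of ribosomal DNA (Rn45s, described below) fell in this class, at 654 reads in WT and 819.5 in TetTKO. None of its 594 CpGs was over 5% in either library. How many of them fall in this class, and the class means without them, were not determined. At 1000 reads or more, the 357 CpGs had 64.7% and 58.5%. Just outside the threshold, 638 CpGs of 45 to 49 reads had 67.4% and 61.6%, and just inside it, 432 CpGs of 50 to 54 reads had 65.4% and 59.9%.

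**Figure D2:**
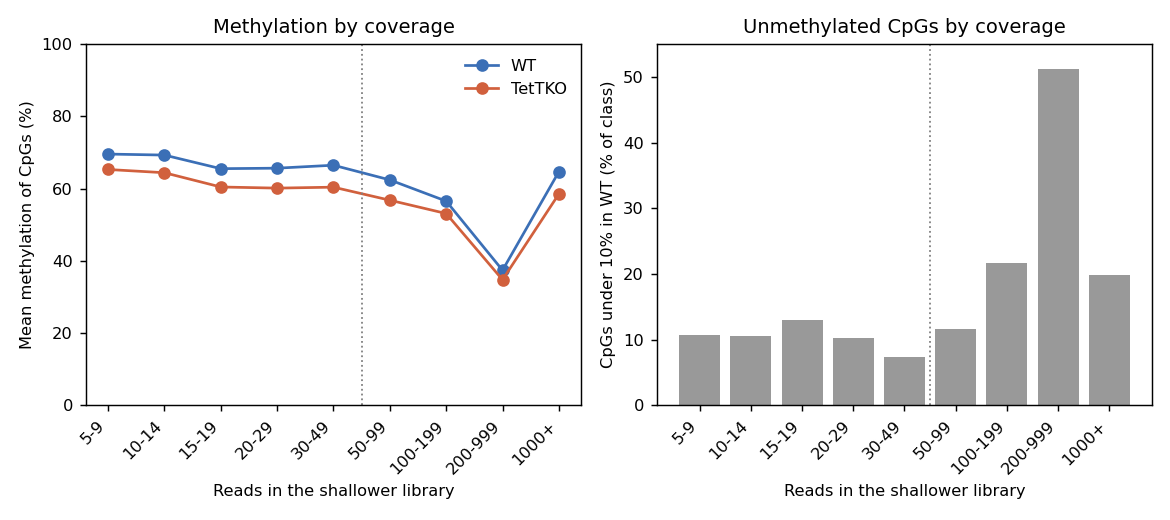
Mean methylation of listed autosomal CpGs by reads in the shallower library (left) and the share of each class under 10% methylated in WT (right); the dotted line marks the threshold of 50 reads. The class from 200 to under 1000 reads has the lowest means, 37.4% and 34.8%, and the largest share of unmethylated CpGs, 51.2%. The median depth of the ribosomal DNA cluster, of 594 nearly unmethylated CpGs, falls in this class.

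Of the 10 deepest clusters, the first 7 had at least 69.5% methylation in WT and were lower in TetTKO. Those ranked 8, 9 and 10 had 0.262, 0.763 and 25.8% in WT and were higher in TetTKO when reads were pooled. They are described further below. On chromosome 2, 30 CpGs at 98506419 to 98507482 had 83.6% (83.5 to 83.7) in WT and 75.5% (75.5 to 75.6) in TetTKO. Their mean coverage was 4788 times the WT median and 4445 times the TetTKO median, and 1 CpG there was read 92834 and 96107 times. All 30 were lower in TetTKO. The adjoining cluster at 98502421 to 98505349, with 33 CpGs, had 69.5% and 63.5%.

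At the start of chromosome 9, 461 CpGs at 3006305 to 3038256 had 81.2% (81.1 to 81.3) in WT and 73.5% (73.4 to 73.6) in TetTKO, and 434 of them were lower. Coverage there was 163 times and 158 times the median. The 99 CpGs at 3000031 to 3005118 had 81.0% and 73.0%, and 98 were lower. The difference was even along the larger cluster, from -7.10 to -8.06 points in its 5 equal parts, although coverage in those parts ran from 47.1 to 373 times the WT median. Smaller deep clusters gave like values. They were 10 CpGs at 35112827 of chromosome 9 (82.3% and 73.7%), 6 at 3109883 of chromosome 12 (81.4% and 73.4%) and 4 at 103599049 of chromosome 6 in Chl1, a cell adhesion gene (77.3% and 72.2%).

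Some of these clusters shared a spacing that the rule did not use. In the large chromosome 9 cluster, 246 pairs of listed CpGs lay exactly 234 bp apart, the most frequent distance from 20 to 700 bp, and 161 pairs lay 468 bp apart. A distance of 234 bp ranked first in 5 of 103 clusters with at least 10 listed CpGs. They were both clusters at the start of chromosome 9, that at 98506419 of chromosome 2, on 8 pairs, that at 35112827 of chromosome 9, on 3 pairs, and 1 in the Speer region of chromosome 5, on 2 pairs. The clusters on chromosome 12 and in Chl1 had too few CpGs to be counted. The chromosome 2 cluster and both chromosome 9 clusters also shared a run of 7 successive CpG distances in reversed order. The unit of mouse major satellite is known to be of this length. In the neighbouring chromosome 2 cluster the most frequent distance was 120 bp, on 6 pairs.

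**Figure D3:**
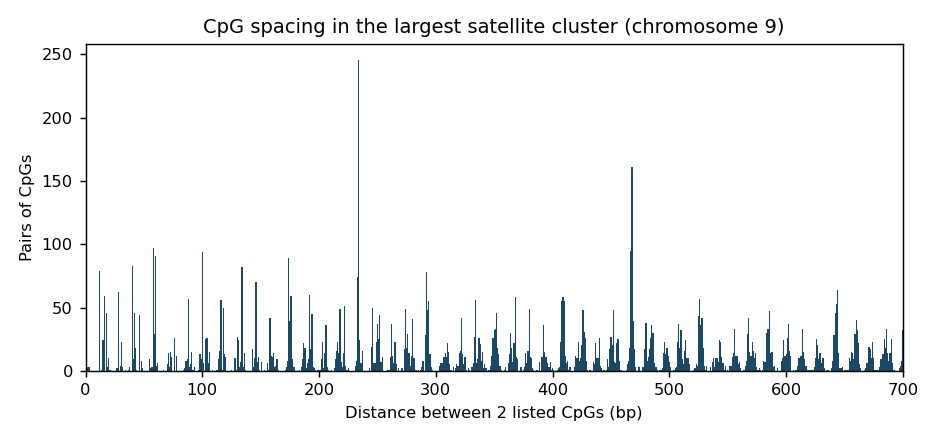
Number of pairs of listed CpGs at each distance up to 700 bp in the cluster at the start of chromosome 9. The tallest bar, 246 pairs, stands at 234 bp and the next, 161 pairs, at 468 bp.

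Ribosomal DNA was the largest cluster and was almost unmethylated in both libraries. Of 597 listed CpGs in the interval of Rn45s (chromosome 17, 39979942 to 39985774), the 45S pre-rRNA gene, 594 were members. Their pooled methylation was 0.763% (0.736 to 0.791) in WT and 1.06% (1.03 to 1.09) in TetTKO, at 72.8 and 80.4 times the median coverage. No member there exceeded 5% in either library, with maxima of 4.40% and 4.17%. Of the 594, 425 were higher and 163 lower in TetTKO. The bisulfite conversion rate of each library was not determined here, and its part in differences this small was not tested. Rn45s RNA was listed at 6061 FPKM in WT and 6434 in TetTKO. These are libraries depleted of ribosomal RNA, so that value is what remained after depletion.

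A cluster on chromosome 1 was the least methylated of those with at least 3 CpGs. Its 21 CpGs at 24619111 to 24620492 had 0.262% (0.188 to 0.357) in WT and 0.292% (0.228 to 0.369) in TetTKO. It lies between Col19a1, a collagen gene, and Lmbrd1, where RefSeq lists the pseudogene Gm10925, a name it pairs with mt-Atp6. Its coverage was 80.6 times the median in WT and 116 times in TetTKO, a ratio of 1.43.

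In all, 14 clusters of at least 3 CpGs were under 20% in WT and they held 958 CpGs. They were CpG dense, with a median of 83.6 listed CpGs per kb against 9.99 in the 207 other clusters of that size. When reads were pooled, 9 of the 14 were higher in TetTKO and 5 lower. The difference was largest at 100883767 of chromosome 12, where 8 CpGs had 11.5% (9.01 to 14.5) in WT and 2.68% (1.51 to 4.39) in TetTKO and all 8 were lower. After Rn45s, the deepest of those in genes was at 57391242 of chromosome 16, in 2610528E23Rik and Filip1l, where 54 CpGs had 0.806% and 1.45%. In Zc3h7a, a zinc finger gene, 50 CpGs had 1.22% in WT and 2.07% in TetTKO. In Jarid2, a cofactor of Polycomb repressive complex 2, 29 CpGs had 1.90% and 3.10%. In Lars2, which encodes the mitochondrial leucyl-tRNA synthetase, 18 CpGs had 1.03% and 1.23%. In Gphn, which encodes the synaptic scaffold gephyrin, 11 CpGs had 7.82% and 5.81%. Lars2, Zc3h7a, Gphn, Camk1d and the chromosome 12 cluster were named after their values were seen.

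Some of these small clusters resembled each other or ribosomal DNA. The 44 CpGs at 3151070 of chromosome 6 had 4.68% in WT and 2.33% in TetTKO and shared a run of 16 successive CpG distances with the Rn45s cluster. The Jarid2 cluster shared 7 with that at 57391242 of chromosome 16, and the cluster in Camk1d on chromosome 2 shared 10 in reversed order with that at 5860340 of chromosome 3. Away from these, clusters at 45289457 of chromosome 14 and 7319879 of chromosome 18 shared 14 distances. Their methylation was 54.7% and 56.3% in WT and 53.8% and 56.1% in TetTKO. Runs of at least 6 linked 6 of 8055 pairs of clusters on different chromosomes.

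Several of the other large neighbourhoods held arrays of genes and pseudogenes. Of 28 neighbourhoods with at least 20 CpGs, which held 93.2% of the members, 9 overlapped no deposited gene interval and 7 overlapped 1 gene. In WT, 21 of the 28 were over 20% methylated, and 19 of these were lower in TetTKO when reads were pooled. The exceptions were the Sfi1 region of chromosome 11 (63.9% and 64.2%) and the Pisd-ps2 region of chromosome 17 (63.6% and 64.8%). As a mean over CpGs, the Sfi1 region was lower in TetTKO, at -0.848 points with 71.0% of its CpGs lower, so its direction turned with the weighting. The Pisd-ps2 region had 0.144 points by that mean, with 66.7% of its CpGs lower. Of the 7 under 20%, 6 were higher in TetTKO when reads were pooled, and the exception was that at 3151070 of chromosome 6. That at 24619111 of chromosome 1, higher by pooled reads, had -0.119 points as a mean over CpGs, with 52.4% of its CpGs lower.

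The largest array lay at 19684253 to 20036596 of chromosome 8, with 927 CpGs in 51 clusters. It had 66.3% in WT and 58.0% in TetTKO, and 49 of its 51 clusters were lower. Its transcribed pseudogenes 2610005L07Rik and 6820431F20Rik were listed at 4.09 and 5.18 FPKM and, at 2 loci of the same symbol, at 1.69 and 2.40 and at 5.76 and 8.35 FPKM in WT and TetTKO. The 191 CpGs of the cluster at 19960318 had 73.2% and 64.6%. A CpG-dense end of 2610005L07Rik in this array was nearly unmethylated in both libraries, where 27 members within 500 bp of position 20020392 had 1.91% (1.33 to 2.64) in WT and 2.06% (1.53 to 2.70) in TetTKO.

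The region of Sfi1, which encodes a centrin-binding protein of the centrosome, held most of the single CpGs that were far higher in TetTKO. Its interval (chromosome 11, 3031853 to 3093466) overlapped 4 clusters of 601 members in all, 507 of them inside the interval. The 131 CpGs at 3026970, which also cover Pisd-ps1 and Pisd-ps3, had 77.3% in WT and 71.1% in TetTKO. The 105 at 3052626 had 68.7% and 62.2%, and the 97 at 3041911 had 62.2% and 64.0%. When the last of these was divided into 5 equal lengths, the second was at 49.02% and 59.7% and the third at 44.6% and 55.9%, while the first and the fifth differed by -4.95 and -5.79 points. The 268 at 3069230 to 3098289 had 57.5% (57.1 to 58.0) and 62.6% (62.2 to 62.9).

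The higher value of that largest cluster lay in 1 stretch. Within 500 bp of the Sfi1 interval's end at 3093466, 59 members had 28.4% (27.7 to 29.2) in WT and 60.7% (59.8 to 61.5) in TetTKO, and 57 of the 59 were higher in TetTKO. Between 3092758 and 3093859, over 1102 bp, a partly different set of 59 members had 26.0% in WT and 60.1% in TetTKO. Of these, 54 were at least 20 points higher, 36 of them inside the Sfi1 interval. The difference was largest at position 3093035, with 6.92% in WT and 63.2% in TetTKO. The remaining 209 CpGs of the cluster had 68.3% in WT and 63.1% in TetTKO, and 47 of them were higher, by at most 18.9 points. The stretch was singled out after its values were seen.

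The stretch also differed in coverage. It stood at 26.3 times the median in WT and 19.3 times in TetTKO, against 21.8 and 23.5 in the rest of the cluster. Unmethylated reads per CpG were 19.5 times the library's median coverage in WT and 7.71 times in TetTKO, and methylated reads 6.83 and 11.6 times. A change of methylation and a change in the number of copies read cannot be told apart from these values. Sfi1 RNA was 4.55 FPKM in WT and 2.76 in TetTKO.

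Members numbered at least 5 within 500 bp of 17 gene ends, some of which share CpGs and which form 13 groups with none in common. Of the 17, 1 was at least 20 points higher and 0 were lower by that size. It was that of Sfi1, which lies in the stretch singled out above. The other 16 ranged from -13.8 to 1.19 points. The share over all gene ends was not taken, and of the 1 kb windows 2.64% were that much higher and 4.92% lower. Of single members, 77 (1.69%) were at least 20 points higher and 138 (3.03%) lower, and the cluster at 3069230 held 54 of the 77 and that at 3041911 held 7. Among CpGs of 30 to 49 reads, 1.49% were at least 20 points higher and 10.6% lower, at a depth where counting error is larger.

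**Figure D4:**
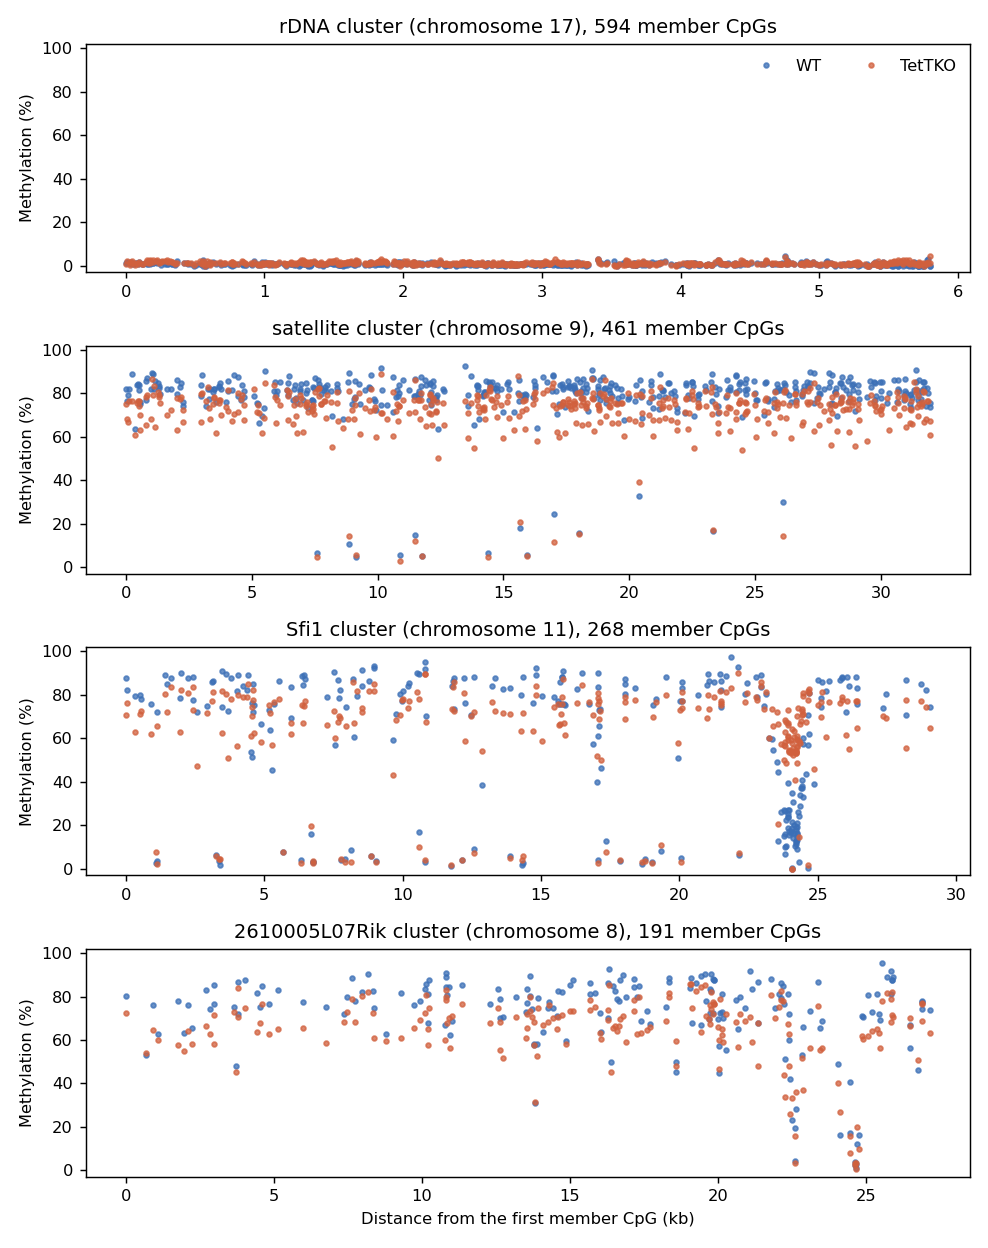
Methylation of each member CpG in WT (blue) and TetTKO (orange) against its distance in kb from the first member, in 4 of the largest clusters. The ribosomal DNA stays under 5% in both, the chromosome 9 cluster is lower in TetTKO along its length, and in the Sfi1 cluster a CpG-dense stretch near 24 kb is low in WT and higher in TetTKO.

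The zinc finger gene region of chromosome 4 held 4 of the neighbourhoods. Between 144997676 and 146960287 of chromosome 4, 4 neighbourhoods had WT methylation of 66.0, 71.5, 68.5 and 66.5% and TetTKO methylation of 56.5, 60.02, 62.8 and 60.9%. Their spans overlapped 9 gene symbols, picked by position after earlier values were known, of which 4 (Gm13212, Gm13242, Gm13251 and Zfp600) were at least 2-fold higher in TetTKO on the log2(FPKM + 1) scale and 0 lower, against 1.77% and 0.847% of all 10978 genes of at least 1 FPKM. The log2 differences of the 9 ran from 0.61 to 1.46. Gm13242 (Zfp980 in RefSeq) was listed at 32.4 FPKM in WT and 68.9 in TetTKO, and its 17 members had 69.5% and 60.2%. Gm13251 (Zfp992) was at 8.34 and 18.3 FPKM, with 14 members at 68.7% and 58.2%. Zfp600 was at 5.91 and 18.0 FPKM, with 15 members at 74.8% and 70.6%. Gm13152 (Zfp982), whose interval held 128 members, was at 55.2 and 86.1 FPKM, and Gm13157 (Zfp984), just beyond with 1 member, at 46.8 and 79.99. Zinc finger genes of this kind encode DNA-binding repressors that often target transposons. They are near copies, so the split of RNA reads between them is uncertain.

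Other arrays were also lower in TetTKO. At the Sp100 family of chromosome 1, which encodes nuclear body proteins, 148 CpGs at 87376169 to 87523859 had 70.6% and 66.5%. Sp110 was listed at 0.45 FPKM in WT and 2.07 in TetTKO, and Sp140 at 0.39 and 0.89. A second chromosome 1 array, of 256 CpGs at 84959680 to 85343050 around A530032D15Rik and C130026I21Rik, had 68.7% and 64.8%. The Speer arrays of chromosome 5, a rodent family expressed in testis, had 63.9% and 57.5% over 135 CpGs and 76.7% and 67.2% over 55.

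Dux, the double homeobox factor that activates genes of the cleaving embryo, lay in an array of 86 CpGs at 57684277 to 57702322 of chromosome 10. The array had 76.2% in WT and 66.5% in TetTKO, and all 5 of its clusters were lower. The 27 members inside the Dux interval had 79.0% and 68.8%. Dux RNA was listed at 0.12 FPKM in WT and 1.76 in TetTKO, on which the ratio is poorly determined since the WT value is near 0.

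On chromosome 6, 27 CpGs at 47603093 to 47728235 between Ezh2 and Pdia4 had 47.8% and 40.0%. RefSeq lists Rn4.5s, a small RNA gene, in that interval. The largest difference downward of a cluster with at least 3 CpGs was here, at 47696059, where 6 CpGs had 65.9% in WT and 47.6% in TetTKO. The clusters at 47697923, 47699992 and 47696059 had the 3 lowest ratios of TetTKO to WT relative coverage among clusters of at least 3 CpGs, from 0.681 to 0.79, on the chromosome whose coverage differed as a whole. The median ratio of the 11 clusters of chromosome 6 was 0.754.

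Of the 76 clusters that were higher in TetTKO, 34 had at least 3 CpGs. Among these, the largest difference was at 146209635 of chromosome 4, where 3 CpGs had 50.3% (WT) and 62.4% (TetTKO). A deep one was at 74916242 to 74917369 of chromosome 15, between Ly6c1 and Ly6c2, genes of GPI-anchored surface proteins. Its 11 CpGs had 25.8% and 33.0%, at 59.7 and 64.6 times the median coverage.

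**Figure D5:**
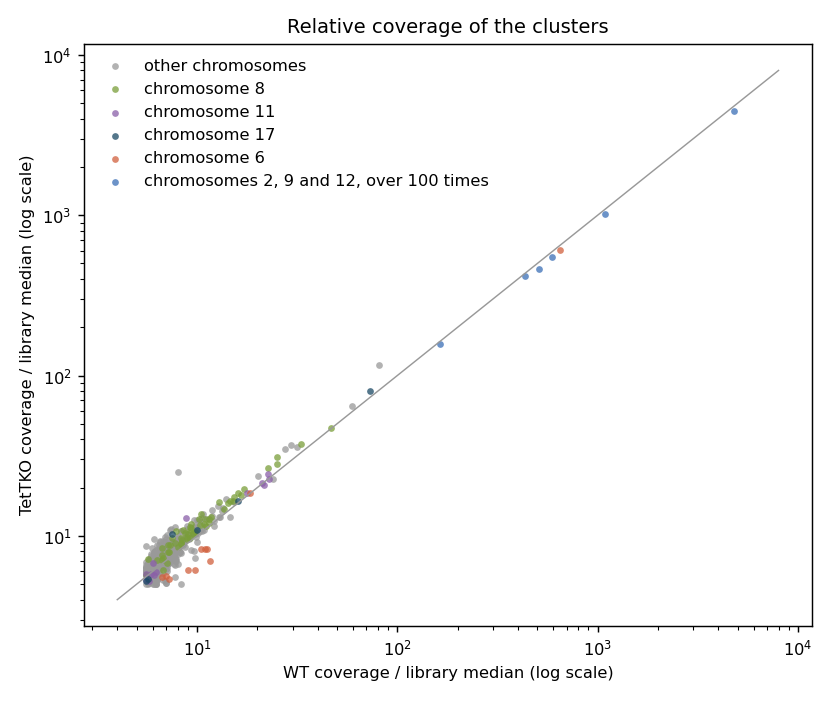
Mean coverage of each of the 435 clusters divided by the library median, in WT (horizontal) and TetTKO (vertical), both on log scales; the line marks equality. Clusters follow the line up to 4788 and 4445 times the median, and most of the chromosome 6 clusters (orange) lie under it.

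Low CpGs inside methylated clusters recurred in both libraries. In the 363 clusters of at least 50% in WT, 174 of 3406 members (5.11%) were under 10% in WT. Of these, 160 were also under 10% in TetTKO. The matching share in methylated windows elsewhere was not taken, so whether such CpGs are particular to these clusters was not determined. The Sfi1 region held 75 of the 174, and 607 of the 3406 members. The profiles by distance show them as a row of paired points near 0.

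Members were not spread evenly. Of all members, 28.3% lay within 2 Mb of the first listed CpG of their chromosome, against 1.497% of listed CpGs, and 0.987% lay within 2 Mb of the last, against 1.54%. Of the 1291 members near a start, 607 were in the Sfi1 region and 560 in the chromosome 9 satellite clusters. Without these 2 neighbourhoods the share was 3.65%. Chromosome 19 held none. Deposited gene intervals contained 50.6% of members, 48.8% of listed CpGs and 28.8% of the flanking CpGs. Without the Rn45s cluster the share of members was 43.3%. Of 435 clusters, 149 overlapped a gene interval. Exons and introns are not given by these intervals and were not determined.

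The intervals of 47 gene symbols overlapped a cluster, and 27 of these reached 1 FPKM in either library. On the log2(FPKM + 1) scale, 5 of the 27 were at least 2-fold higher in TetTKO (Zfp600, Dux, Sp110, Gm13242 and Gm13251) and 0 were lower. Dux and Sp110 reached 1 FPKM only in TetTKO, at 0.12 and 0.45 FPKM in WT, so they were counted only through the library where they are higher. Zfp600, Gm13242 and Gm13251 are near copies in 1 region of chromosome 4. The 5 are therefore not separate cases to set against the share over all genes. Among all 10978 genes of at least 1 FPKM, 1.77% were higher and 0.847% lower. The median log2 difference was 0.18 over the 27 and -0.0076 over all, and 20 of the 27 were higher and 7 lower. Those that were lower included Pisd, which encodes phosphatidylserine decarboxylase, at 43.1 and 25.8 FPKM, and 2610528E23Rik at 47.2 and 41.1. Jarid2 was at 74.6 and 98.3 FPKM, 2410141K09Rik at 50.1 and 61.2, and Cdk8, a Mediator kinase, at 25.7 and 28.9.

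Of 24 listed genes of heterochromatin and DNA methylation, 1 was at least 2-fold higher in TetTKO and 0 lower, with 16 higher and 8 lower by any amount and a median log2 difference of 0.086. Over all genes the shares were 1.77% and 0.847%. The gene past that size was Dnmt3b, a de novo methyltransferase, at 66.9 FPKM in WT and 149.2 in TetTKO. Dnmt3a, the other de novo methyltransferase, lay just inside it, at 14.7 and 30.3 FPKM and a log2(FPKM + 1) difference of 0.99. Uhrf1, which recruits Dnmt1 to newly replicated DNA, was at 109.2 and 71.8 FPKM, and Dnmt1 itself at 59.8 and 65.8. Trim28, the corepressor of KRAB zinc finger proteins, was at 1013 and 989.7. These are levels in 1 library each.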

How the data were processed

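In all, 4 libraries were used, 1 WGBS and 1 RNA-seq library of each genotype. Per the labels' protocols, WGBS fragments of about 350 bp were sequenced as pairs of 110 bp reads and RNA, depleted of ribosomal RNA, as single reads of 50 bp. The submitters' processing notes name Trim Galore, Bismark 0.7.9, Bowtie and SAMtools, TopHat2 2.0.2 and Cufflinks 2.0.2, and the mm9 build. Whether duplicate reads were removed and how reads with several alignments were treated is not given in the sources used here, and both bear directly on coverage in repeats. The deposited WGBS files hold, per CpG, the methylated fraction and the count of methylated and of all reads, and list CpGs of at least 5 reads. The deposited RNA files hold FPKM per gene and an interval with no strand, and their read depth is unknown.

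Positions are those of the files. A cluster's methylation is the share of methylated reads pooled over its CpGs, with an exact 95% binomial interval; reads shared between CpGs and PCR copies make these too narrow. Relative coverage is the mean coverage divided by the autosomal median of the library. Genes were compared as log2((TetTKO + 1)/(WT + 1)), which understates changes of low genes, and the background of genes excludes 6 short ones with deposited RNA. Clusters were named for most CpGs, deepest coverage, largest difference and most unequal coverage, and genes for holding such a cluster, for high FPKM or for a 2-fold difference. RefSeq tables of GRCm38.p6 gave names, neighbours and the promoter sequence, and no coordinate was converted. The members and lists were chosen with earlier results of these data known. Coverage threshold, joining distance, cluster size, weighting, flank and gene interval were varied. Cluster calls were tested on simulated shifts of 30 points, spacing on a simulated tandem repeat, and the run search on a forward copy. Smaller shifts, reversed runs and the rate of runs in unrelated clusters were not simulated. Python 3.11.15, numpy 2.4.6, pandas 2.3.3, scipy 1.17.1 and matplotlib 3.10.9 were used.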

Additional observations from a re-analysis of the deposited data

Results flagged for a closer look

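Chromosomes X and Y lie outside the autosomal rule, and both held CpGs read at least 50 times in each library. On chromosome X, 397 of 160303 listed CpGs (0.248%) in 36 clusters had a mean of 51.2% in WT and 53.6% in TetTKO, while all listed CpGs of X had 72.3% and 65.1%. The largest of these clusters, 135 CpGs at 166421512 to 166426677, had 56.7% and 64.7%. On chromosome Y, 180 of 1681 listed CpGs (10.7%) in 21 clusters had 50.3% and 49.1%, and all listed CpGs of Y 64.2% and 63.9%. These sites are given because they hold signal in data that the autosomal comparison does not use.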

How the results depend on the processing

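No alternative turned the mean difference of members or of clusters away from a lower value in TetTKO. The difference between members and their flank did turn, from 1.42 points to -0.484 with a threshold of 30 reads, and the cause was not tested. That threshold gave 1225 clusters, differences of -5.27 points for members and -7.30 for clusters, 7 clusters at least 20 points higher and 99 lower, and 39.0% of members in genes. At 100 reads these were 126 clusters, -3.42, -6.79, 0 and 3 clusters and 57.4%, with 2.02 points against the flank. At 6 times the median they were -4.27, -6.60, 1 cluster higher and 52.2%. Without the Rn45s cluster, members stood at -5.09, at 43.3% in genes and at 0.714 against the flank. Joining under 300 bp gave 844 clusters, -6.94 points, 5 higher and 36 lower, and under 5 kb 219 clusters, -6.22 and 10 lower. The 221 clusters of at least 3 CpGs had -5.91 points, with 0 higher and 0 lower by 20. A size of 30 points left 1 higher and 1 lower. Pooled over reads the members had -7.85 points, genes extended by 5 kb held 58.8%, and a flank to 50 kb gave 0.879. Of alternatives chosen after seeing the data, the mean over neighbourhoods was -5.17 and that of members outside clusters under 20% was -5.61. Without chromosome 6 the members had -4.37 and the clusters -6.45 points. No paired analysis was possible because each genotype had 1 library per assay, and for that reason no library could be left out. Clusters of 1 or 2 CpGs near 50 reads have the widest counting error.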

Other observations

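The largest gain of any cluster was a single CpG at 8838605 of chromosome 14, in the deposited interval of Abhd6, a lipid hydrolase gene. It had 72 reads and 12.5% methylation in WT and 250 reads and 43.2% in TetTKO, so its relative coverage was 3.125 times higher in TetTKO. It was picked out once its values were known.

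Paired clusters at 57686177 and 57692926 of chromosome 10, on both sides of the 4933403O03Rik start, shared a run of 18 successive CpG distances. Their methylation was 75.9% and 77.2% in WT and 66.0% and 67.1% in TetTKO.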
